A study of Mus musculus with 18 samples.

Results

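The genes described here make cholesterol and fatty acids or steer their use. They were a list of 31 named genes, all 31 of which had at least 1 probe set (a group of short probes on the array that together measure 1 transcript) annotated to that gene alone, out of 18193 genes with such a probe set. The 31 genes had 78 such probe sets, and each gene was represented by its probe set with the highest mean, chosen without use of the groups.

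The samples were lungs and lung tumors of B6C3F1/N mice, a hybrid common in carcinogenicity testing, profiled on Affymetrix mouse arrays. The 3 groups were lung of vehicle controls, spontaneous lung tumors, and tumors of mice that breathed antimony trioxide, an additive of flame retardants, in whole-body chambers. All mice were 5 to 6 weeks old at the start, and the exposed mice inhaled 3, 10 or 30 mg per cubic metre for 6 hours and 12 minutes on 5 days a week for up to 105 weeks. Here "control", "spontaneous tumor" and "treated tumor" name these groups. The labels carry no transgene and no engineered allele, and do not say which animal, sex, age at death or exposure level a sample came from, and the p-values here reflect array-to-array spread, which may be technical. The series asked how spontaneous and treated tumors differ from control lung.

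Of 18 arrays, 15 were used: 5 of control lung, 4 of spontaneous tumors and 6 of treated tumors. Control 5 and spontaneous tumors 5 and 6 were left out, because their median correlation with the other arrays over all probe sets was 0.30 to 0.48, against 0.92 to 0.97 for the 15. Over all 18 arrays limma called 0 of the 31 genes in any of the 3 comparisons (5, 5 and 2 at an unadjusted p under 0.05), and the standard error of the 31 log2 differences had a median of 0.55 in each, against 0.24, 0.22 and 0.23 over the 15 arrays. Every call below therefore rests on leaving out these 3 arrays. Among the 15, control and tumor arrays also differed in technical measures. The 3-prime minus 5-prime signal difference of Gapdh was 1.84 to 2.21 for controls, 1.11 to 1.40 for spontaneous and 1.09 to 1.97 for treated tumors, and the bioB hybridization spike read 10.65 to 11.24, 10.19 to 10.49 and 10.24 to 10.62 in the same order. The median log2 signal over all probe sets was 6.77 to 6.81, 6.68 to 6.73 and 6.69 to 6.72 in that order. Every control was thus above every tumor in this measure. Counts with each array centred on its median are given at the end. The part of these measures in the results was not tested otherwise.

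As background, cells build both cholesterol and fatty acids from acetyl-CoA. SREBP proteins, membrane-bound transcription factors that are cut free when sterols are scarce, switch on the genes of both branches: SREBP-2, made from Srebf2, mainly the cholesterol branch, and SREBP-1, made from Srebf1, mainly the fatty acid branch. In the lung, alveolar type 2 cells make fatty acids and phosphatidylcholine for surfactant, the lipid film that keeps alveoli open. Tumors of many organs are known for active fatty acid synthesis.

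The labelled tissue fitted its markers, with surfactant protein C, Sftpc, at a mean log2 signal of 14.2 in each of the 3 groups. Markers of several cell types differed between tumor and control samples, however. Of 9 measured alveolar type 2 markers, 7 were higher than control in spontaneous and 7 in treated tumors, with medians of 0.70 and 0.65 on the log2 scale. Endothelial markers were lower for 9 and 10 of 10, smooth muscle and fibroblast markers for 8 and 8 of 10 (with 1 higher in treated tumors), and ciliated cell markers for 10 and 10 of 10. Of 9 macrophage markers, 2 were called higher in each comparison, a share of 22.2%, close to that over all genes, but 9 and 8 of the 9 had differences above 0, with medians of 1.56 and 1.11 and a median standard error of 0.64 and 0.58. Cell division genes were called higher for 9 and 3 of 9. All 9 had differences above 0 in each comparison, with medians of 1.78 and 1.14 and a median standard error of 0.54 and 0.48. The log2 of the summed signal of the type 2 markers was 15.96 to 16.39 in controls, 16.61 to 16.81 in spontaneous and 16.65 to 16.73 in treated tumors, and that of the endothelial markers 14.80 to 15.45, 11.77 to 12.77 and 11.46 to 12.76. In such bulk tissue, a change in the share of a cell type and a change in RNA per cell cannot be told apart. Adipocytes, which also make fat, had 8 measured markers, of which 2 were higher and 2 lower in each kind of tumor, with a log2 summed signal of 9.27 to 9.73 in control, 8.99 to 9.32 in spontaneous and 8.75 to 9.59 in treated tumors. The adiponectin gene Adipoq and the leptin gene Lep stayed below the lowest quartile of gene values on each of the 15 arrays.

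Against control lung, genes of fatty acid synthesis and lipid assembly were among those that rose, and genes of cholesterol synthesis among those that fell. In spontaneous tumors 8 of the 31 genes rose and 4 fell, and in treated tumors 8 rose and 3 fell (limma, adjusted p under 0.05 over all 18193 genes). By the chosen probe sets, the genes that rose in each comparison were Srebf1, Acly, Acaca, Fasn, Scd2, Acsl4, Agpat2 and Chka. All of these are outside the cholesterol branch, where other probe sets of some genes were called higher, as given below. The genes that fell were Idi1, Sqle, Msmo1 and Sc5d in spontaneous tumors and Idi1, Sqle and Insig1 in treated tumors, all of cholesterol synthesis or its control. Over all genes tested, 20.1% rose and 12.9% fell in spontaneous tumors, and 23.8% rose and 15% fell in treated tumors. The count of 8 is thus 25.8% of the list in both comparisons, and the counts of 4 and 3 are 12.9% and 9.68%, near the shares over all genes. The median log2 fold change over the 31 genes was -0.056 in spontaneous and 0.095 in treated tumors, beside 0.12 and 0.089 over all genes. Both comparisons share the 5 control arrays.

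**Figure D1:**
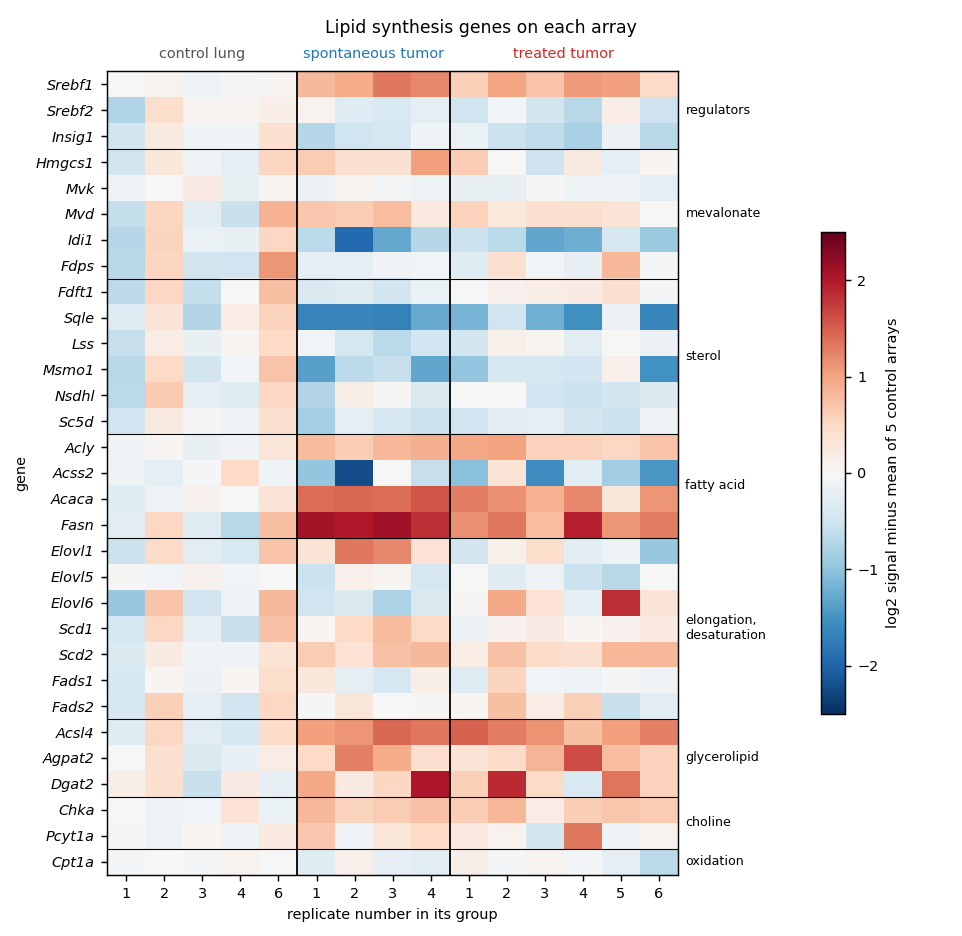
Heat map of the 31 genes (rows, grouped by role) on the 15 arrays (columns, by group and replicate number), coloured by log2 signal minus the mean of the 5 control arrays of that gene. Srebf1, Acly, Acaca, Fasn and Acsl4 are red on every tumor array, and Idi1 and Sqle are blue on every tumor array. Control arrays 2 and 6 are above the control mean for 26 and 28 of the 31 genes, those of the cholesterol branch included.

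Srebf1, the gene of SREBP-1, rose in both kinds of tumor. It read 9.41, 9.50, 9.30, 9.36 and 9.45 on the control arrays. On spontaneous tumors it read 10.21, 10.32, 10.72 and 10.60, and on treated tumors 9.89 to 10.46 with a median of 10.25. Every tumor array of either kind lay above every control array. Srebf1 rose by 1.06 ± 0.14 (log2 fold change ± standard error, n = 4 and 5, 2.09-fold; limma adjusted p = 4.8e-05) in spontaneous and by 0.81 ± 0.13 (n = 6 and 5; 0.000149) in treated tumors.

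Srebf2, the gene of SREBP-2, did not pass the test, with -0.21 ± 0.22 in spontaneous and -0.35 ± 0.20 in treated tumors. The 95% intervals of these differences were -0.68 to 0.26 and -0.77 to 0.08, so a rise of the size of that of Srebf1 lies outside both. Insig1, which holds the SREBP escort complex in the endoplasmic reticulum and is itself an SREBP target, read 10.09, 10.78, 10.45, 10.45 and 10.97 in control. Its spontaneous tumor values were 9.83, 10.05, 10.12 and 10.43, and the treated ones 9.74 to 10.40 with a median of 9.96. The groups overlapped through control 1, the lowest control. Insig1 fell in treated tumors (-0.50 ± 0.17, limma adjusted p = 0.0321) and was at -0.44 ± 0.19 in spontaneous tumors (adjusted p = 0.0893). The call in treated tumors was lost without any 1 of control 2, control 6 or treated tumors 2, 3, 4 or 6 (limma adjusted p = 0.0531 to 0.0893) and with each array centred on its median (0.0653), and with all 18 arrays the value was 0.18.

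Of other genes of this control step, 8 of 9 listed were measured. Limma called 2 higher in each comparison and 0 lower (in treated tumors as in spontaneous ones): Mbtps2, the site-2 protease that cuts SREBP free, at 0.46 ± 0.15 and 0.80 ± 0.14, and Insig2, a relative of Insig1, at 0.29 ± 0.11 and 0.39 ± 0.10 in spontaneous and treated tumors. This is 25% of the 8, near the 20.1% and 23.8% of all genes that rose.

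Of the 4 fatty acid synthesis genes, the 3 that lead from citrate to palmitate rose in both comparisons and the acetate-using Acss2 was not called. The rises are 75% of so short a list, where 20.1% and 23.8% of all genes rose. Fasn, fatty acid synthase, had the largest log2 rise of the 31 genes in both comparisons. It read 9.61, 10.40, 9.57, 9.18 and 10.64 in control lung, 11.96, 11.88, 12.00 and 11.70 in spontaneous tumors and 10.65 to 11.82 with a median of 11.10 in treated tumors. All tumor arrays were above all controls, although treated tumor 3 at 10.65 was just over control 6 at 10.64. Fasn rose by 2.01 ± 0.27 (4.02-fold, limma adjusted p = 5.6e-05) in spontaneous and by 1.26 ± 0.25 (2.40-fold, 0.000840) in treated tumors.

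Acaca, acetyl-CoA carboxylase 1, makes the malonyl-CoA that Fasn uses. Control arrays read 8.68, 8.83, 9.09, 8.96 and 9.29, spontaneous tumors 10.36, 10.40, 10.36 and 10.54 and treated tumors 9.26 to 10.25 with a median of 10.09. The 4 spontaneous tumors lay close together and all above control, while treated tumor 5, at 9.26, fell below control 6, at 9.29. Acaca rose by 1.45 ± 0.18 (limma adjusted p = 2.7e-05) and 0.98 ± 0.16 (0.000230). Its second probe set gave 1.70 and 1.21, both called.

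Acly, ATP citrate lyase, supplies cytosolic acetyl-CoA from citrate. It read 11.56, 11.71, 11.48, 11.57 and 11.97 in control, 12.44, 12.27, 12.49 and 12.54 in spontaneous and 12.18 to 12.66 with a median of 12.30 in treated tumors, without overlap between tumor and control. The rise was 0.78 ± 0.13 (limma adjusted p = 0.000431) and 0.72 ± 0.12 (0.000233). Of its 6 probe sets, the 3 bright ones gave 0.71 to 0.97 over both comparisons, all called. The chosen one carries the array maker's mark for probes that can match other sequences, as do those chosen for Fdft1, Elovl1 and Elovl5. Those chosen for Mvd and Lss carry its mark for probes shared by several transcripts.

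Acss2, which makes acetyl-CoA from acetate, did not follow. Its control values were 10.42, 10.33, 10.51, 11.05 and 10.44, its spontaneous tumor values 9.58, 8.33, 10.54 and 9.97, and its treated tumor values ranged from 9.0 to 10.89 with a median of 9.59. The tumors scattered widely, from 8.33 to 10.89, and all but spontaneous tumor 3 and treated tumor 2 lay below every control. With -0.94 ± 0.42 and -0.81 ± 0.38 it did not pass limma (adjusted p = 0.0959 and 0.104).

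**Figure D2:**
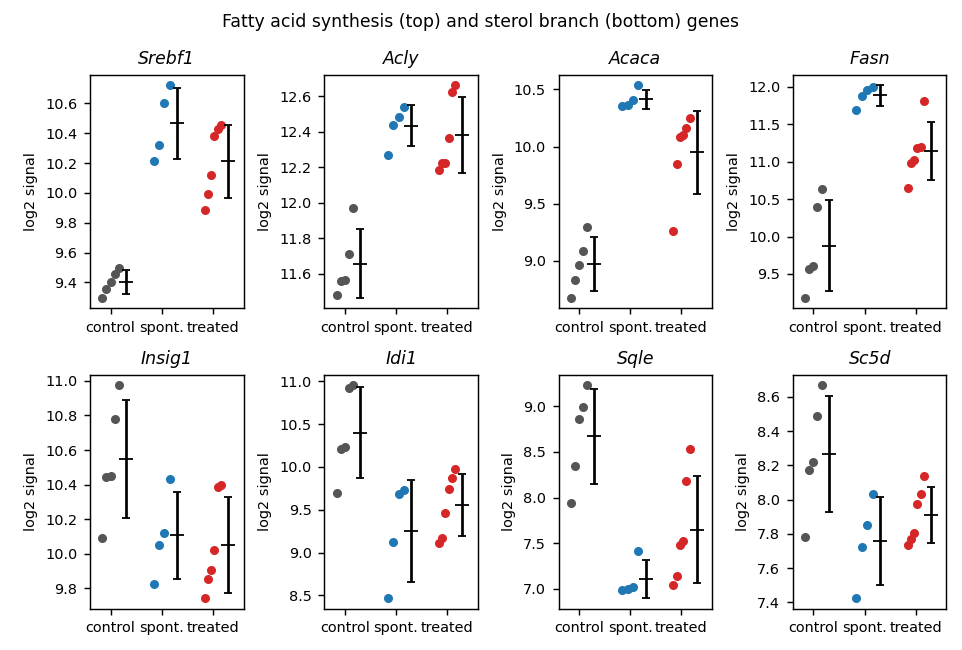
Log2 signal (vertical axes, not starting at 0) of 4 genes of fatty acid synthesis and its regulator (upper row) and 4 genes of cholesterol synthesis and its control (lower row) in control lung, spontaneous tumors and treated tumors. Each point is 1 array, and the bar is the mean ± SD. The tumors lie above the controls in the upper row, except 1 treated tumor for Acaca. In the lower row the 4 spontaneous tumors lie below every control for Sqle, 4 of 5 controls lie above every tumor for Idi1, and tumors and controls overlap for Insig1 and Sc5d.

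Other genes of fatty acid synthesis were listed beside these. Of 14 listed, 13 were measured, and 5 rose in spontaneous and 4 in treated tumors by limma, with 0 and 1 lower. The rises are 38.5% and 30.8% of the 13, where 20.1% and 23.8% of all genes rose. The citrate carrier of the mitochondrial membrane, Slc25a1, rose by 1.39 ± 0.19 and 0.99 ± 0.17, and malic enzyme, Me1, which makes the NADPH that Fasn consumes, by 1.82 ± 0.21 and 1.52 ± 0.19. Elovl7, an elongase of very long saturated fatty acids, rose by 2.05 ± 0.18 and 2.21 ± 0.17. Elovl4, a photoreceptor and skin elongase, was the 1 lower gene at -0.46 ± 0.13 in treated tumors. Its means of 3.68 there and 4.14 in control were both below the lowest quartile of gene values, 5.65.

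The 250 bases before the start sites of the fatty acid synthesis genes are shown because this was the role group with most of its members called in 1 direction. Sequences are from the RefSeq table of GRCm38.p6, which held 29 windows for 24 of the 31 genes. Motifs searched on both strands were the sterol regulatory element TCACNCCAC, the CCAAT box, the GC box GGGCGG, and the E-box CACGTG. Capitals mark every match, and the window of Acaca (chr11:84195188-84195437, + strand), not printed, held none. That window lies before 1 annotated start, and whether it acts as a promoter was not tested. Nothing about the promoter of Acaca follows from it.
Fasn (chr11:120824548-120824797, - strand): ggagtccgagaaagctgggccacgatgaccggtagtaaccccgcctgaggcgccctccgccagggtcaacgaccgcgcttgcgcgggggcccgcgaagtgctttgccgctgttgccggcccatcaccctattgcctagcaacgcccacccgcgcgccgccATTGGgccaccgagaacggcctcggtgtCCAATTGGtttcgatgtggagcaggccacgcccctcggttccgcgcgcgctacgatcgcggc
Acly (chr11:100528001-100528250, - strand): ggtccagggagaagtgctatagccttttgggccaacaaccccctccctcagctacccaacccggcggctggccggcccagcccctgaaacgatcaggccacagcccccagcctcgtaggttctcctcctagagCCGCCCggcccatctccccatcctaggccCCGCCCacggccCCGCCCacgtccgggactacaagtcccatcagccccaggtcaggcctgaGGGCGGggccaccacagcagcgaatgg
Acss2 (chr2:155517793-155518042, + strand): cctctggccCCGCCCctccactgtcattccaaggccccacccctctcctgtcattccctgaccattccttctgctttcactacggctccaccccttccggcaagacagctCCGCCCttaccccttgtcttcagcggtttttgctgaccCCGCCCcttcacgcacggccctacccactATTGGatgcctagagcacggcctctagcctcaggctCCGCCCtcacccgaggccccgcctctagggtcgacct
The Fasn window held 3 CCAAT boxes, 2 of them overlapping on opposite strands 62 to 55 bases before the start. The Acly window held 4 GC boxes, and that of Acss2 held 4 GC boxes and 1 CCAAT box. CCAAT boxes were in 62.1% of the 29 windows of the listed genes and in 35.4% of 21262 windows of protein-coding genes, and GC boxes in 79.3% and 42.6%. The sterol element was in windows of 2 members, Hmgcs1 and Pcyt1a (10.3% of windows, against 1.01%), and the E-box in those of Elovl5, Insig1 and Sc5d (10.3%, against 6.63%). These matches are descriptions of letters and not of binding.

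Of the genes that extend or desaturate fatty acids, 1 of 7 rose in each comparison and 0 fell. That gene (14.3%, where 20.1% and 23.8% of all genes rose) was Scd2, a stearoyl-CoA desaturase, which makes monounsaturated fatty acids. It read 10.98, 11.56, 11.27, 11.26 and 11.68 in control, 11.99, 11.71, 12.09 and 12.15 in spontaneous and 11.53 to 12.18 with a median of 11.95 in treated tumors. Spontaneous tumors were all above control, and treated tumor 1, at 11.53, was below controls 2 and 6. The rise was 0.64 ± 0.17 (limma adjusted p = 0.00941) and 0.57 ± 0.15 (0.00747). With the signal difference between the actin 3-prime and 5-prime probes in the fit, the call in spontaneous tumors was lost (adjusted p = 0.0550). Its relative Scd1 was at 0.45 ± 0.24 and 0.10 ± 0.22 and was not called. Scd1 spanned 12.20 to 13.49 among controls alone, a range that held all but 1 of the 10 tumors. The difference between Scd1 and Scd2 was not tested.

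The delta-5 and delta-6 desaturases Fads1 and Fads2, which make polyunsaturated fatty acids, were not called. Fads1 was at -0.06 ± 0.20 and -0.01 ± 0.18, with 95% intervals of -0.48 to 0.37 and -0.40 to 0.37. For Fads2 the values were 0.08 ± 0.28 and 0.12 ± 0.25. The intervals for Fads2 were -0.51 to 0.67 and -0.41 to 0.66. The elongase Elovl5, which acts on polyunsaturated chains, was at -0.19 ± 0.17 and -0.27 ± 0.15.

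The mean of Elovl1 was highest in spontaneous tumors and that of Elovl6 in treated tumors. Elovl1, an elongase of very long saturated chains, had means of 11.94 ± 0.55 (SD, n = 5) in control, 12.75 ± 0.53 (n = 4) in spontaneous and 11.73 ± 0.48 (n = 6) in treated tumors. Against control it was at 0.81 ± 0.32 and -0.21 ± 0.29, neither called by the chosen probe set, while its 3 other probe sets gave 0.97 to 1.06 in spontaneous tumors, each called. Elovl6, which extends palmitate to stearate, had means of 6.51 ± 0.76, 6.01 ± 0.20 and 7.05 ± 0.75, and was not called against control.

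Of 3 genes that channel fatty acids into membrane and storage lipids, 2 rose in both comparisons (66.7%, beside 20.1% and 23.8% of all genes). Acsl4, which activates arachidonic and other polyunsaturated acids, was one. Its control values were 10.17, 10.99, 10.19, 10.08 and 10.94, its spontaneous tumor values 11.49, 11.57, 11.91 and 11.79, and treated tumors spanned 11.23 to 11.95 with a median of 11.66. No tumor value was as low as the highest control, control 2. The rise was 1.22 ± 0.20 (2.32-fold, limma adjusted p = 0.000376) and 1.15 ± 0.18 (2.22-fold, 0.000175), and both of its other probe sets were called higher, at 1.31 to 1.62.

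Agpat2, which makes phosphatidic acid, the precursor of glycerolipids, rose by 0.78 ± 0.25 (limma adjusted p = 0.0262) and 0.78 ± 0.22 (0.0124). Its controls read 8.16 to 8.93, spontaneous tumors 9.02, 9.79, 9.46 and 8.94, and treated tumors 8.88 to 10.16 with a median of 9.20. Spontaneous tumor 4, at 8.94, was just above the highest control, at 8.93, and treated tumor 1, at 8.88, was below it, and the call in spontaneous tumors was lost without any 1 of controls 3 or 4 or spontaneous tumors 2 or 3 (adjusted p = 0.0574 to 0.0873), with the replicate number as a block (0.0632) and with that actin difference in the fit (0.0808). Dgat2, the last enzyme of triglyceride synthesis, was at 0.93 ± 0.41 and 0.74 ± 0.37, not called, with tumors from 6.88 to 9.27.

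Chka, choline kinase alpha, the first step of phosphatidylcholine synthesis, read 9.12, 9.01, 9.07, 9.49 and 8.95 in control and 9.95, 9.68, 9.76 and 9.87 in spontaneous tumors. The treated tumors were at 9.31 to 9.97 with a median of 9.75. Only treated tumor 3, at 9.31, lay within the control range. The rise was 0.69 ± 0.14 (limma adjusted p = 0.00140) and 0.59 ± 0.12 (0.00147). The rate-setting enzyme of this route, Pcyt1a, was at 0.35 ± 0.27 and 0.20 ± 0.24, not called, with 1 treated tumor at 10.84 and the other 5 between 9.06 and 9.77.

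On the wider list of glycerolipid genes, of which 16 of 17 were measured, 5 rose and 3 fell in spontaneous tumors, and 6 rose and 3 fell in treated tumors by limma. The rises are 31.25% and 37.5% of the 16, beside 20.1% and 23.8% of all genes, and the falls 18.75% in each, beside 12.9% and 15%. Lpcat1, which remodels phosphatidylcholine for surfactant, rose by 0.95 ± 0.15 and 0.91 ± 0.13, and Acsl5 by 0.62 ± 0.12 and 0.57 ± 0.11. Agpat3 rose by 0.61 ± 0.13 in spontaneous tumors, and Cept1, a late enzyme of phosphatidylcholine and phosphatidylethanolamine synthesis, by 0.49 ± 0.14 in treated tumors. Gpam, the mitochondrial enzyme that starts glycerolipid synthesis, went the other way at -1.88 ± 0.22 and -2.0 ± 0.20, as did Agpat4 at -2.24 ± 0.27 and -1.82 ± 0.24. Pcyt1b, a relative of Pcyt1a, was at -1.20 ± 0.30 and -1.22 ± 0.27. Its tumor means of 4.82 and 4.81 lay below the lowest quartile of gene values, 5.65, and its control mean was 6.02. The falls of Gpam and Agpat4 thus stood beside the lower stromal and endothelial markers, whose part in them was not tested.

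Cpt1a, the gate through which fatty acids enter mitochondria to be burned, did not pass the test. It was at -0.16 ± 0.15 and -0.12 ± 0.14, with 95% intervals of -0.48 to 0.16 and -0.41 to 0.17. Of 10 measured genes of fatty acid oxidation, 3 rose in spontaneous and 4 in treated tumors, and 0 fell by limma. These rises are 30% and 40% of so short a list, where 20.1% and 23.8% of all genes rose. The nuclear receptor Ppara rose by 1.11 ± 0.20 and 0.93 ± 0.18, its coactivator Ppargc1a by 1.33 ± 0.29 and 1.13 ± 0.26, and the dehydrogenase Acadl by 0.51 ± 0.14 and 0.68 ± 0.13.

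None of the 11 listed members of the cholesterol branch rose by its chosen probe set. Of these, 4 fell in spontaneous and 2 in treated tumors by limma and 0 rose (at an unadjusted p under 0.05, Hmgcs1 and Mvd were higher in spontaneous tumors). The falls are 36.4% and 18.2% of the 11, where 12.9% and 15% of all genes fell, so the share in treated tumors is near that over all genes. The median log2 fold change over the 11 was -0.32 and -0.13. Sqle, squalene epoxidase, which sets the rate of the sterol steps, fell furthest. It read 8.35, 8.99, 7.94, 8.86 and 9.23 in control, 7.0, 7.02, 6.98 and 7.41 in spontaneous and 7.04 to 8.53 with a median of 7.50 in treated tumors. Spontaneous tumors lay wholly below control, whereas treated tumors 2 and 5, at 8.18 and 8.53, reached into the control range. Sqle was 2.97-fold lower in spontaneous tumors (-1.57 ± 0.31, limma adjusted p = 0.00117) and 2.03-fold lower in treated tumors (-1.02 ± 0.28, 0.00819).

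Idi1, which isomerizes the isoprene unit that all later steps use, read 9.69, 10.95, 10.24, 10.21 and 10.92 in control. Spontaneous tumors were at 9.73, 8.47, 9.12 and 9.68 and treated tumors at 9.11 to 9.98 with a median of 9.60. Control 1, at 9.69, lay among the tumors, and the other 4 controls were above all of them. The change was -1.15 ± 0.30 (limma adjusted p = 0.00860) and -0.85 ± 0.27 (0.0220). The call in treated tumors was lost without control 2 or without control 6 (adjusted p = 0.0613 and 0.0606).

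Msmo1 and Sc5d, which act late on the sterol ring, fell in spontaneous tumors. Msmo1, the methylsterol monooxygenase, read 7.52, 8.71, 7.76, 8.15 and 8.93 in control, 6.86, 7.55, 7.65 and 6.92 in spontaneous and 6.7 to 8.34 with a median of 7.75 in treated tumors. Spontaneous tumors 2 and 3 overlapped the lowest control. Its difference was -0.97 ± 0.33 (limma adjusted p = 0.0359) and, in treated tumors, -0.61 ± 0.30 (0.122). Sc5d, the sterol desaturase, read 7.78, 8.49, 8.22, 8.18 and 8.67 in control, 7.42, 8.03, 7.85 and 7.73 in spontaneous and 7.74 to 8.14 with a median of 7.89 in treated tumors, again overlapping the lowest control, control 1. Its difference was -0.51 ± 0.17 (0.0309) and -0.36 ± 0.15 (0.0776), and its 2 dimmer probe sets gave -1.27 and -1.23 in treated tumors, both called. For both genes in spontaneous tumors the call was lost without any 1 of control 2, control 6, spontaneous tumor 1 or spontaneous tumor 4, and for Msmo1 also without control 4 (adjusted p = 0.0560 to 0.104). With the actin covariate the adjusted p was 0.0535 for Msmo1 and 0.169 for Sc5d, and for Sc5d it was 0.0562 with median centring and 0.0629 in a fit of the arrays of these groups alone.

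The other 7 members of this branch were not called. Hmgcs1, which makes HMG-CoA, was at 0.62 ± 0.24 (limma adjusted p = 0.0577) in spontaneous and 0.03 ± 0.21 in treated tumors, and 3 of its 4 other probe sets were called higher in spontaneous tumors at 0.97 to 1.21. Mvd, mevalonate diphosphate decarboxylase, was at 0.58 ± 0.26 and 0.33 ± 0.23, and its other probe set was called higher in both, at 0.69 and 0.54. For Hmgcs1 and Mvd, then, whether a rise was called depended on the probe set, as it did for Fdft1. Mevalonate kinase, Mvk, was at -0.06 ± 0.10 and -0.13 ± 0.09, and Fdps, which makes farnesyl diphosphate, at -0.16 ± 0.33 and 0.11 ± 0.30. Squalene synthase, Fdft1, was at -0.32 ± 0.24 and 0.14 ± 0.22, but a second probe set of it was called higher in spontaneous tumors, against the sign of the chosen one. Lanosterol synthase, Lss, was at -0.42 ± 0.20 and -0.12 ± 0.18, and Nsdhl, a sterol dehydrogenase, at -0.23 ± 0.26 and -0.31 ± 0.23.

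Of 8 measured genes among 11 others of this branch, 1 rose in spontaneous tumors, and 1 rose and 1 fell in treated tumors by limma. Each count of 1 is 12.5% of the 8, where 20.1% and 23.8% of all genes rose and 15% fell in treated tumors. Pmvk, phosphomevalonate kinase, the step between Mvk and Mvd, rose by 1.70 ± 0.28 and 0.88 ± 0.26. Ebp, a sterol isomerase, fell in treated tumors, at -0.66 ± 0.22. Of 7 measured genes of sterol uptake and efflux, limma called 0 in either comparison.

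The 5 controls differed among themselves in the cholesterol branch and in other listed genes. The median over the 11 members of that branch, relative to the control mean, was 0.50 on control 2 and 0.54 on control 6, and -0.59, -0.20 and -0.18 on controls 1, 3 and 4. For the 7 elongation and desaturation genes it was 0.48 and 0.52 on controls 2 and 6, and -0.42, -0.22 and -0.12 on the others. Over all 31 genes it was 0.32 and 0.45, and -0.40, -0.18 and -0.09. Controls 2 and 6 also had more macrophage, cell division and type 2 signal: the log2 summed signal of macrophage markers was 14.99 and 15.44 on them and 13.80 to 14.12 on the other 3, that of cell division genes 11.62 and 11.18 against 9.36 to 9.98, and that of type 2 markers 16.32 and 16.39 against 15.96 to 16.06. The part of these cells in the sterol gene values was not tested. Over the 4 fatty acid synthesis genes the median was -0.20 to 0.32 in control, 1.02 to 1.23 in spontaneous and 0.41 to 1.07 in treated tumors, so every tumor array lay above every control array and the tumor groups overlapped each other.

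**Figure D3:**
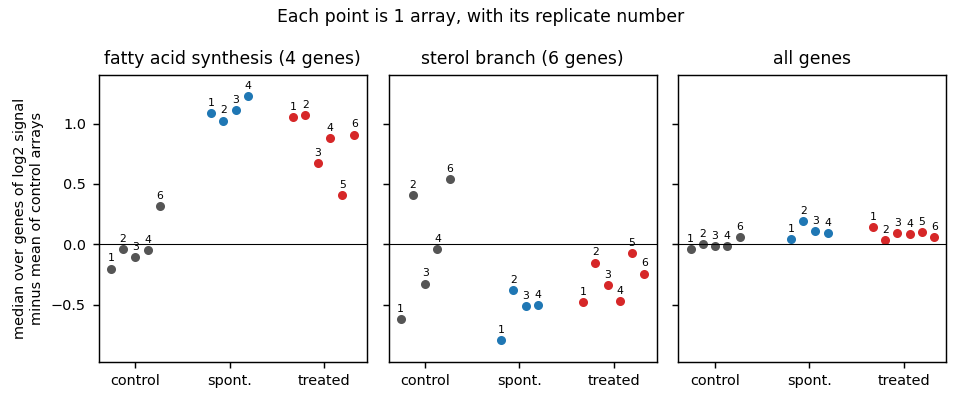
Median over genes of log2 signal minus the control mean (vertical axis) for 4 fatty acid synthesis genes, 6 sterol genes from Fdft1 to Sc5d, and all 18193 genes, with 1 point per array and its replicate number. For fatty acid synthesis every tumor array is above every control array, while for the sterol genes the controls spread from -0.62 to 0.54 and overlap the tumors.

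In spontaneous tumors 8 of the 31 genes had all tumor values above all control values and 1 had them all below, where 17.8% and 11.4% of all genes did. In treated tumors it was 4 and 0 genes, beside 14.4% and 10.1%. The exact 2-sided permutation test, whose smallest possible p is 0.0159 and 0.00433, gave an unadjusted p under 0.05 for 13 genes in each comparison. It was run on the 31 genes alone, so no share over all genes stands beside this count.

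**Figure D4:**
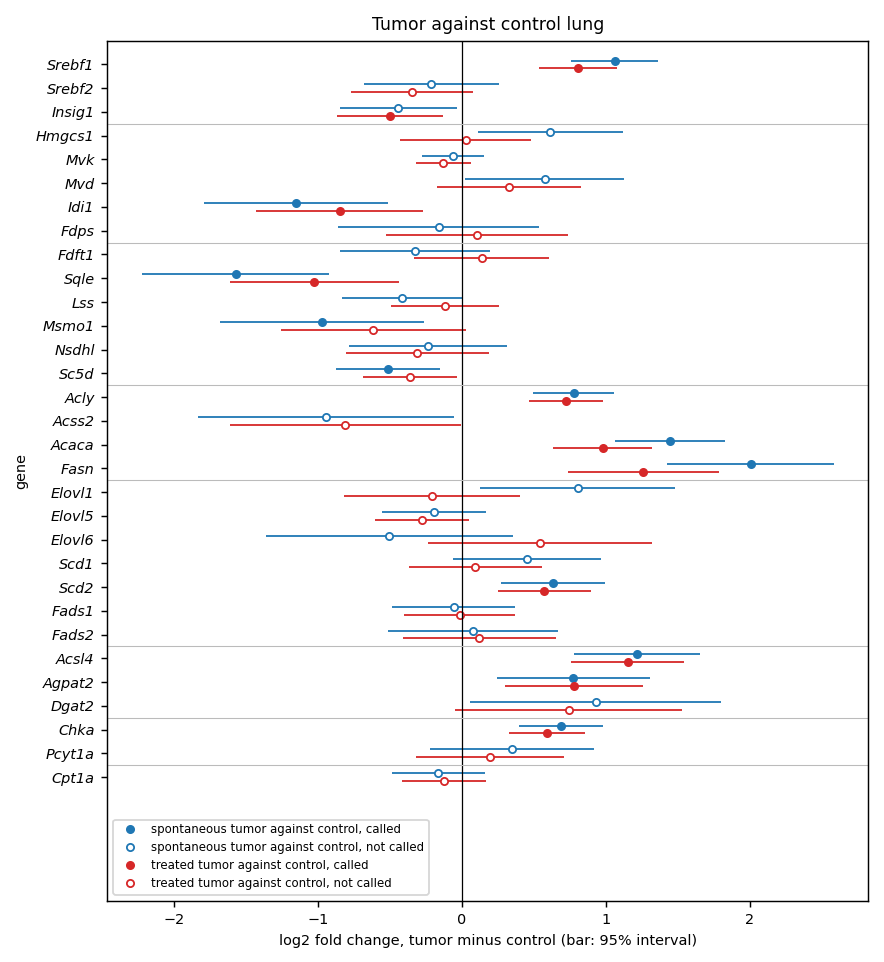
Log2 fold change of each of the 31 genes in spontaneous (blue) and treated tumors (red) against control lung, with 95% intervals from limma. Filled points passed an adjusted p under 0.05. Fasn, Acaca, Acsl4 and Srebf1 lie furthest to the right and Sqle and Idi1 furthest to the left in both comparisons.

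Treated and spontaneous tumors were compared to see whether exposure went with different lipid gene levels. Limma called 0 of the 31 genes, and the smallest adjusted p was 0.323. At the same adjusted threshold 0.055% of all genes were called. At an unadjusted p under 0.05 limma had 5 of the 31, 4 of them lower in treated tumors, and the exact permutation test had 6. The share of all genes at an unadjusted p under 0.05 was not computed, so these 2 counts have no background beside them. Values of treated and spontaneous tumors did not overlap for 3 of the 31, where 1.63% of all genes did.

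These 3 genes were Acaca, Elovl6 and Fdft1. Acaca was lower in treated tumors at -0.47 ± 0.17, with all 6 below the 4 spontaneous tumors (exact p = 0.00952, limma adjusted p = 0.454). Elovl6 read 6.01, 6.14, 5.72 and 6.15 in spontaneous tumors and 6.28 to 8.36 with a median of 6.84 in treated tumors, a difference of 1.05 ± 0.39 (exact p = 0.00952, limma adjusted p = 0.454). Its spontaneous tumor values were dim, not far above the lowest quartile of gene values, 5.65. Fdft1 read 9.09, 9.13, 8.98 and 9.27 and 9.40 to 9.85 with a median of 9.58, a difference of 0.46 ± 0.23 (exact p = 0.00952, limma adjusted p = 0.611). An exact p of 0.00952 is the smallest that 4 against 6 arrays can give. Controls spread across both tumor groups for Elovl6 and Fdft1, from 5.56 to 7.33 and from 8.78 to 10.20.

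The 5 genes with an unadjusted limma p under 0.05 were Acaca, Elovl6, Fasn, Elovl1 and Hmgcs1, and Fdft1 was not among them. Fasn was at -0.74 ± 0.26, with 1 treated tumor, at 11.82, above the lowest spontaneous tumor, at 11.70 (exact p = 0.0190, limma adjusted p = 0.427). Elovl1 was at -1.01 ± 0.31, the smallest limma p of the 31 but not free of overlap (12.28, 13.26, 13.14 and 12.30 against 10.99 to 12.37 with a median of 11.74). Hmgcs1 was at -0.59 ± 0.23. None of these holds after adjustment over all genes. For other genes that rose against control the 95% intervals of the difference were -0.33 to 0.22 for Acly, -0.54 to 0.04 for Srebf1, -0.38 to 0.19 for Chka, -0.41 to 0.28 for Scd2 and -0.48 to 0.36 for Acsl4.

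**Figure D5:**
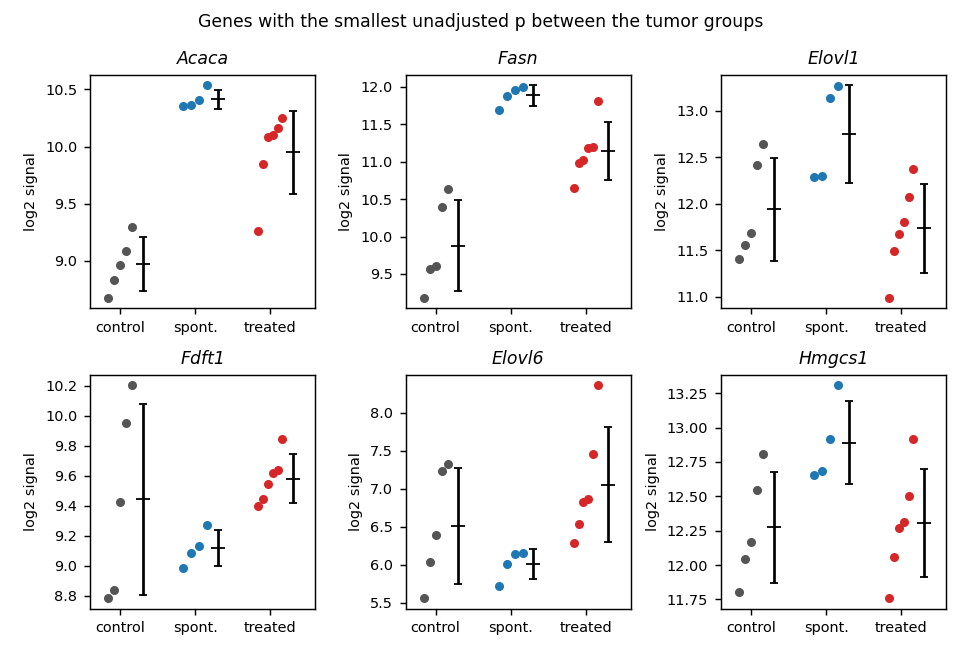
Log2 signal (vertical axes, not starting at 0) of the 6 genes with the smallest unadjusted limma p between treated and spontaneous tumors. Each point is 1 array, and the bar is the mean ± SD. Acaca, Elovl6 and Fdft1 show no overlap between the 4 spontaneous and 6 treated tumors, and none of the 6 genes passed the adjusted threshold.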

How the data were processed

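Lung RNA was hybridized to Affymetrix arrays. Per the submitters' processing notes, the authors computed the deposited log2 values with RMA, a method that subtracts background, makes all arrays share a distribution and combines the probes of a set. Its version is not given in the sources used here. No further normalization was applied. Of 45101 probe sets, 34945 carried 1 gene symbol, and the one with the highest mean over the 15 arrays stood for each of 18193 genes.

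All genes were fitted with limma 3.58.1 in R 4.3.3, with 1 mean per group over 15 arrays, with Benjamini-Hochberg adjustment over all of them. A call is an adjusted p under 0.05. Differences are the group named first minus the other. Exact permutation tests were 2-sided and unadjusted. The number of arrays limits the precision. The fit was also run on simulated data in which genes and arrays were independent. Those data held no shift shared by many genes of an array, as some controls here show, so that run does not cover such shifts.

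The members, lists and tests were chosen with earlier results of these data known. All members are named, and from other lists up to 3 called genes per direction with the smallest p. Protein sequences were not used here. Alternatives were all 18 arrays, quantile normalization, median centring, leaving out dim genes, averaged probe sets, single probe sets, a variance trend, only the arrays compared, an actin covariate, a replicate block, a fold change of at least 2 and each array left out.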

Additional observations from a re-analysis of the deposited data

Results flagged for a closer look

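In 4 of 93 groups of arrays (31 genes in 3 groups), 1 array stood apart from the others by Dixon's test at the 95% level, which chance alone flags in about 5% of groups. Sqle on spontaneous tumor 4 read 7.41, where the other 3 spontaneous tumors read 6.98 to 7.02. Acss2 on control 4 read 11.05, and the next highest control read 10.51. Fads1 on treated tumor 2 read 11.71, and the next highest treated tumor 11.13. Chka on treated tumor 3 read 9.31, and the next lowest treated tumor 9.73.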

How the results depend on the processing

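Precision is limited by 4 to 6 arrays a group, and results for dim probe sets by their signal over background. Calls held in all 15 fits that left out 1 array for 9 of 12 genes in spontaneous and 9 of 11 in treated tumors; Agpat2, Msmo1, Sc5d, Idi1 and Insig1 are given above. Leaving out 1 array gave 7 to 12 members higher and 2 to 6 lower in spontaneous tumors, 8 to 9 and 1 to 5 in treated tumors, and 0 between tumor groups. The lower count in treated tumors was 1 without control 2 or without control 6 and 5 without control 1, and that in spontaneous tumors 2 without control 2, control 6, spontaneous tumor 1 or spontaneous tumor 4. Over all genes the calls were 4993 to 6177, 6083 to 7225 and 0 to 28, beside 6012, 7065 and 10. All 18 arrays gave 0 members in each direction and 757, 1350 and 0 genes. Requiring a fold of at least 2 left 4 members higher and 2 lower in spontaneous tumors, 2 and 1 in treated tumors, and 2421 and 2589 genes. Leaving out dim genes gave 4004 and 4658 genes, since fewer were tested. The actin covariate gave 6 members higher and 2 lower in spontaneous tumors and 27 genes between tumor groups. The mean of probe sets gave 11 members higher and 4 lower in spontaneous tumors, and 8 and 5 in treated tumors. Over all genes it called 6094 and 7186. Median centring gave 10 members higher and 3 lower in spontaneous tumors, and 8 and 2 in treated tumors. Over all genes it called 6943 and 7824. Between tumor groups, robust variances gave 5 genes, quantile normalization 5 and only the arrays compared 0. The causes were not tested. A second probe set of Fdft1 gave 0.47 in spontaneous tumors (limma adjusted p = 0.046), and Insig1 over all 18 arrays 0.18 in treated tumors. Deviations from the group means correlated at -0.15 to 0.30 between same-numbered arrays of different groups and at -0.35 to 0.37 between the others. So few pairs cannot show whether the replicate number pairs the samples. With the number as a replicate block, 7 members were higher and 4 lower in spontaneous tumors, 8 and 4 in treated tumors, and 5764, 6417 and 0 genes were called.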
